A study of Homo sapiens with 12 samples.

Results

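The response of MDA-MB-231 cells with the wild-type glucocorticoid receptor (WT-GR) to dexamethasone (Dex) was measured by RNA sequencing. It compares 3 libraries of cells given 1 µM Dex for 6 h with 3 libraries of cells given vehicle for 6 h, which are 6 of the 12 libraries of the series. MDA-MB-231 is an established human triple-negative breast cancer line. Both groups expressed WT-GR and were first serum starved for 18 h in IMEM medium that held 1% DCC. The other 6 libraries hold cells with S134A-GR, a receptor in which alanine replaces a serine that can be phosphorylated, under the same 2 treatments. How the receptor was introduced, whether a line is 1 clone, whether another copy of the receptor remained and whether replicate libraries came from separate cultures are not given in the labels. P-values therefore measure only the spread between these libraries, which may be technical. Of the 19907 genes in the files, 15334 had a value of at least 10 in 3 or more of the 6 libraries and were tested, and 4573 fell below that filter. Of the tested genes 36 passed the filter through the Dex group alone and 39 through the vehicle group alone, and those had to differ. Values are normalised read counts, which grow with transcript length, so levels are compared between groups and not between genes.

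The glucocorticoid receptor is a transcription factor that waits in the cytoplasm bound to heat-shock chaperones. A steroid such as Dex releases it into the nucleus, where it binds DNA as a dimer at paired sites and raises genes nearby. It also lowers inflammatory genes, in part by acting on genes driven by AP-1 and NF-kB. In epithelial and breast cancer cells it is known for changing survival, adhesion, metabolic and clock genes within hours.

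The values of the Dex libraries could be read only after a repair of their gene names. In the Dex files 19907 lines carry a value beside 26485 names, and only 8 lines hold the same name as the vehicle files. Matched by line, log2 values of the Dex libraries correlated across genes with the vehicle mean at r = 0.984 to 0.9866, and matched by name at r = -0.0063 to -0.0042. The Dex values therefore carry the vehicle names of the same lines, and every result below rests on this repair. Recovered depth was 56.4, 85.8 and 86.2 M reads (M, 10 to the power 6) in vehicle libraries 1, 2 and 3 and 56.9, 93.8 and 93 M in Dex libraries 1, 2 and 3. Dex libraries 2 and 3 stood apart from the others. Genes with 1 read numbered 193 and 210 in them and 354 to 409 in each of the others. Genes at 0 numbered 2890 and 2910 in them and 1897 to 2611 in the others. Dex lay apart from vehicle on principal component 1, which held 42.1% of the variance. On component 2, with 23.2%, Dex library 2 lay at -39.8, Dex library 3 at 43.4 and the other 4 libraries between -2.45 and 1.72. The median SD of log2 values was 0.148 over the Dex libraries and 0.094 over the vehicle libraries. The cause was not tested. Where a call of a gene named below was lost without both of these libraries, its value without them stands beside it.

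**Figure D1:**
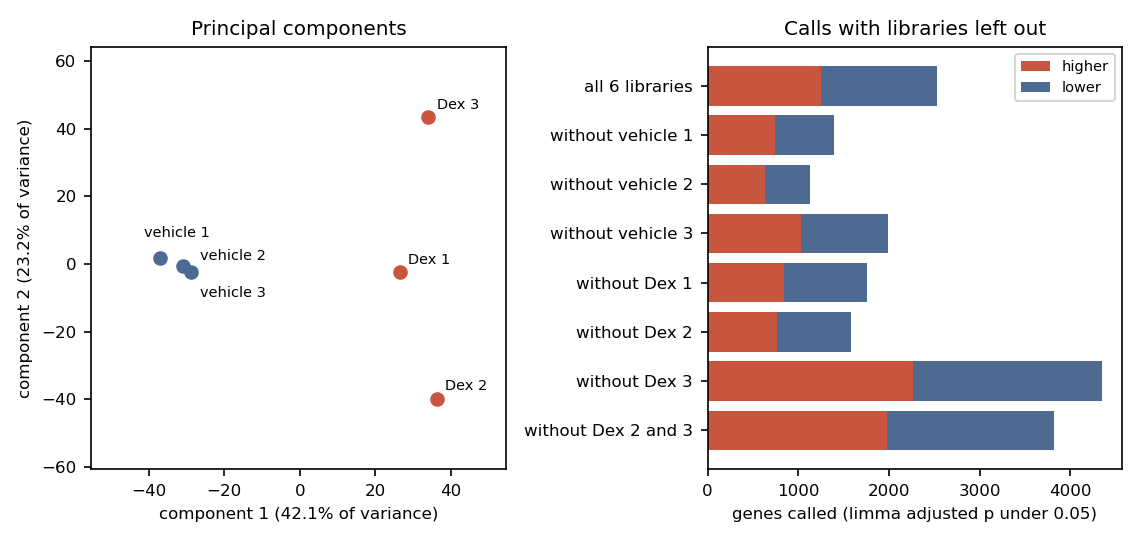
Left, the 6 WT-GR libraries on the first and second principal components of their log2 values, with vehicle in blue, close together, and Dex in red, with libraries 2 and 3 at opposite ends of the second component. Right, the number of genes called higher (red) and lower (blue) with Dex, with all 6 libraries and with libraries left out, where the bar is longest, at 4352 genes, without Dex library 3.

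Marker levels were checked against the labelled line. Of 8 genes of mesenchymal breast cancer cells all were abundant, with the intermediate filament gene VIM at 366469 to 426532 and the receptor kinase gene AXL at 103392 to 124504. The oestrogen receptor gene ESR1 was at 0 in 5 of 6 libraries and the epithelial cadherin gene CDH1 at 1.1 to 17.1. In the same list of genes low or absent in the line, others were present: the HER2 gene ERBB2 at 8864 to 11689, the keratin gene KRT18 at 33939 to 41736, EPCAM at 934 to 1093 and GATA3 at 786 to 1337. In that list the progesterone receptor gene was not analysed here. Of 6 leukocyte genes 3 were found, and they summed to 50.5 to 51.8 in vehicle and 54.6 to 73.9 with Dex. The 6 fibroblast genes summed to 3180 to 3588 in vehicle and 3141 to 4063 with Dex. Most of that came from PDGFRB (2111 to 2871.5) and COL1A1 (813.5 to 1380), and its source was not tested. In bulk RNA fewer cells of a type and less RNA per cell cannot be told apart.

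Promoters were read from RefSeq (GRCh38.p14) to show what lies next to the start sites of genes. The motif ACANNNTGT, the core of the paired site of the receptor, was searched on both strands from 250 bases before to 50 bases after each start. It lay in 5.45% of all 27305 promoters, in 2.71% of the 11752 tested genes with a promoter in the table, and in 3.89% of those called higher with Dex. Of genes called higher by at least 2-fold 13 of 188 (6.91%) held it, and of those called lower by at least 2-fold 3 of 117 (2.56%). A longer motif, which is the first with G and any base before it and any base and C after it, lay in 0.23% of tested genes and in 1.6% of those higher by at least 2-fold. The AP-1 motif TGANTCA lay in 4.93% of tested genes, in 7.98% of those higher and in 14.5% (17 of 117) of those lower by at least 2-fold. A match is a description of the letters in this window and shows no binding. The promoters printed below are examples, and both motifs also lay in named genes that moved the other way. FZD8 and NEDD4L fell and hold ACANNNTGT, while LDB3, MT2A and ANKRD1 rose and hold TGANTCA. The promoters of FKBP5, KLF9, DUSP1, PER1, SGK1 and PDK4, which rose, hold neither motif in this window.

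The first 4 promoters below belong to genes that rose and hold ACANNNTGT, here in capitals, and those of TXNIP and PPARGC1A hold the longer motif as well. Each line gives the 250 bases before the start, 5′ to 3′ on the strand of the gene. The motif begins 173 bases before the start in TXNIP (chr1:145996580-145996829, - strand), 160 in PPARGC1A (chr4:24472906-24473155, - strand), 46 in IRS2 (chr13:109786584-109786833, - strand) and 110 in NEDD9 (chr6:11382349-11382598, - strand).
TXNIP: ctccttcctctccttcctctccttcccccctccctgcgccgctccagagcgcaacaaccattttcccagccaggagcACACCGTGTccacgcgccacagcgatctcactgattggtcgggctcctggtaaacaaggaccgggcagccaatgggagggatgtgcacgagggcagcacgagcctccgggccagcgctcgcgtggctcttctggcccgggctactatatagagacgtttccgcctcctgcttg
PPARGC1A: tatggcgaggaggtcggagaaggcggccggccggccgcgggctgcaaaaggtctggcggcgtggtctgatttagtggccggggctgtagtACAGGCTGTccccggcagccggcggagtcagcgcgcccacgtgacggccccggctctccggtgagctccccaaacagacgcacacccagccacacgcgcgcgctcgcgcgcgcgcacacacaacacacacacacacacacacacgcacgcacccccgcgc
IRS2: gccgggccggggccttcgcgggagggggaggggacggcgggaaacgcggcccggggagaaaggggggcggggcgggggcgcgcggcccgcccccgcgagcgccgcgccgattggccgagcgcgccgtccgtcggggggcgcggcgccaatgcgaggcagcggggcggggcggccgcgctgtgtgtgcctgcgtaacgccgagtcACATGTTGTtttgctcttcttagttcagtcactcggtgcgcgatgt
NEDD9: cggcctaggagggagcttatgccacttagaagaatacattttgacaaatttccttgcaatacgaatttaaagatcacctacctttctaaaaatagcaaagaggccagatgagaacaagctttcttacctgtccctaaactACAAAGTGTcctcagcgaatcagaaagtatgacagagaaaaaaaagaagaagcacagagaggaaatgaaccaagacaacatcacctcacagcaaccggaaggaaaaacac
Shown beside them are promoters of genes that fell and hold TGANTCA, in capitals, which begins 96 bases before the start in IL11 (chr19:55370464-55370713, - strand) and 186 in PLAUR (chr19:43670170-43670419, - strand).
IL11: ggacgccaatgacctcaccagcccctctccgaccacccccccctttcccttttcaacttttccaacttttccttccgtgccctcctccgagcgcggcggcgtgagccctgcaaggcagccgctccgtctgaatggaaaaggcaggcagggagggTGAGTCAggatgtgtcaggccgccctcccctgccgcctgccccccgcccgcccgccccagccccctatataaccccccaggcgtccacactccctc
PLAUR: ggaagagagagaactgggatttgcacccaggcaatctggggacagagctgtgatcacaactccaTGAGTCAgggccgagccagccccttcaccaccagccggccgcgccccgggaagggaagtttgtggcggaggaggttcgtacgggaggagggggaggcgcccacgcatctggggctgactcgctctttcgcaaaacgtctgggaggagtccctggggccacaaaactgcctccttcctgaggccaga

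Dex changed genes in both directions in near equal number. By limma on log2(value + 1), 2530 of 15334 genes (16.5%) passed a Benjamini-Hochberg adjusted p under 0.05, of which 1253 (8.17%) were higher and 1277 (8.33%) lower. Where a count of list members below has no share beside it, it stands against these shares. A count under another scaling or set of libraries stands against the shares of that fit, given in the next paragraph. A count near its share is no result about the list. Most changes were small, with a median log2 change of 0.46 among the higher and -0.44 among the lower genes, beside -0.02 over all tested genes. The large changes were mostly rises. At least 2-fold changes numbered 244 higher and 166 lower, at least 4-fold changes 80 and 26, and at least 8-fold changes 27 and 7. The 3 Dex values did not overlap the 3 vehicle values for 5507 genes (35.9%). This held for 2525 of the 2530 called genes, so a lack of overlap in a called gene adds little to its call. Added over all called genes, the gains came to 4.72% of the summed vehicle values and the losses to -2.11%. All values of a library summed to 90.7 to 91.8 M in vehicle and 93.7 to 97.1 M with Dex. The balance of gain and loss therefore depends on the scaling and shows no net gain of RNA. The 10 genes with the largest gains carried 21.5% of the gain.

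The split between the directions depended on the scaling. Scaled by library size alone, in edgeR on recovered reads, 902 genes (5.88%) were higher and 1814 (11.8%) lower, so that 33.2% of calls were higher against 49.5% here. The median of all genes then lay at -0.07. Without Dex libraries 2 and 3, with the lone Dex library assumed to vary like the vehicle libraries, 1978 genes (13.2%) were higher and 1847 (12.3%) lower, as the plot of calls with libraries left out shows. With all 12 libraries in 1 fit these were 13.9% and 14.0%. Among the genes called, Dex library 3 was the nearest of the 3 to vehicle for 54% of the higher and 51.9% of the lower genes, and Dex library 1 the farthest for 55.9% and 46.7%. Among genes changed at least 2-fold the 3 Dex libraries were closer, with median log2 rises of 1.65, 1.65 and 1.69 in Dex libraries 1, 2 and 3. Calls were rarer where values were low: 4.46% of genes with a mean under 100 passed, against 20.9% of those between 1000 and 10000.

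**Figure D2:**
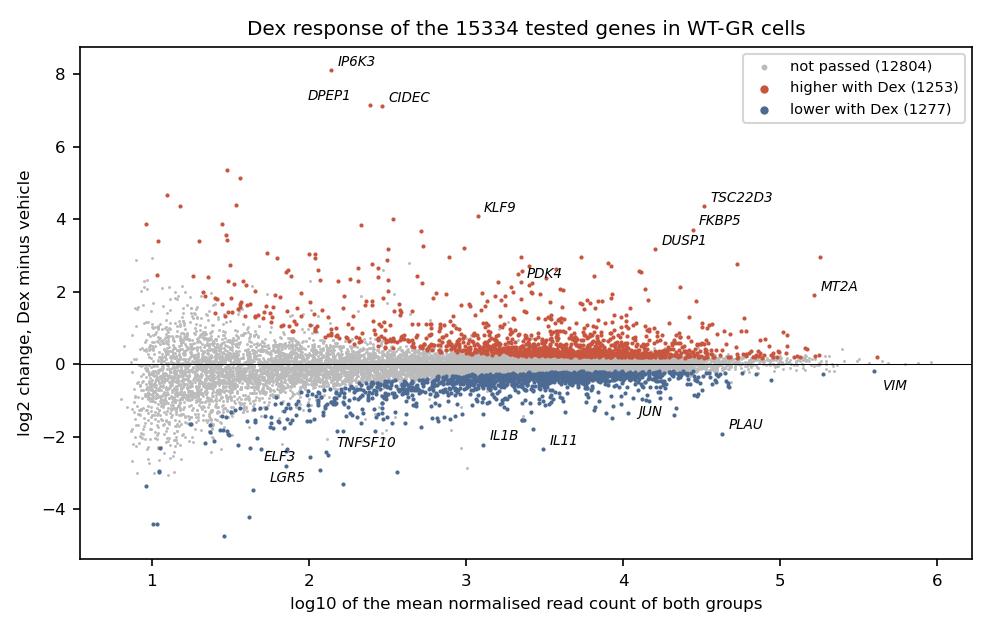
Log2 change with Dex (vertical axis) against the log10 mean normalised read count (horizontal axis) of each tested gene, in red where higher, in blue where lower and in grey where the adjusted p did not pass. Labelled genes are among those named in the text, and the points above 4 on the vertical axis outnumber those below -4.

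The known glucocorticoid-induced genes rose nearly as a whole. Of 24 tested members of that list 22 rose and 0 fell, with a median log2 change of 2.08, beside 8.17% higher and a median of -0.02 over all genes. The members of that list, like those of the other lists, were chosen with earlier results of these data known. Its share is therefore no independent test. TGFBR3 and ALOX5AP were the members that did not pass (log2 changes 0.27 and 0.89), and CDKN1C, LCN2 and TAT lay under the filter. TSC22D3 (chromosome X, 107713221 to 107775988 in GRCh38.p14), the anti-inflammatory leucine zipper protein GILZ, was counted at 2864, 3042 and 3123 in vehicle libraries 1, 2 and 3 and at 63424, 61356 and 61911 in Dex libraries 1, 2 and 3. All 3 Dex values lay far above vehicle, within a narrow range (log2 change 4.37 ± 0.06 SE, limma adjusted p = 1.14e-10). FKBP5, an HSP90-bound protein that lowers the receptor's affinity for steroid, went from 4106, 3850.2 and 3785 to 49104, 50605 and 54595. KLF9, a transcription factor, went from 133.61, 133 and 127 to 2305, 2068 and 2340.2. Neither gene overlapped between the groups, and both kept their calls under all 17 alternatives with repaired names.

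Genes of signalling, the clock and metabolism in this list rose as well. DUSP1, which dephosphorylates MAP kinases, went from 3062, 3258 and 3245 to 31054, 28675 and 26983, and the highest Dex value was that of library 1. PER1, a repressor of the circadian clock, went from 1269, 1166 and 1261 to 10798, 9503 and 8422, again highest in Dex library 1 and lowest in library 3. SGK1, a kinase that raises sodium uptake and cell survival, went from 868, 868 and 973 to 4102, 4210.5 and 4082, with Dex values that differed little. By limma the adjusted p was 3.23e-09, 4.37e-08 and 1.03e-07, at log2 changes of 3.18, 2.95 and 2.19. PDK4 (chromosome 7, 95583499 to 95596516), the kinase that inhibits pyruvate dehydrogenase and that the title of the series names, went from 813, 750.4 and 725 to 3488, 3664 and 3961. Here Dex library 3 was the highest, and every Dex value was over 4 times every vehicle value. The log2 change was 2.28 ± 0.09 SE (limma adjusted p = 1.44e-07).

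**Figure D3:**
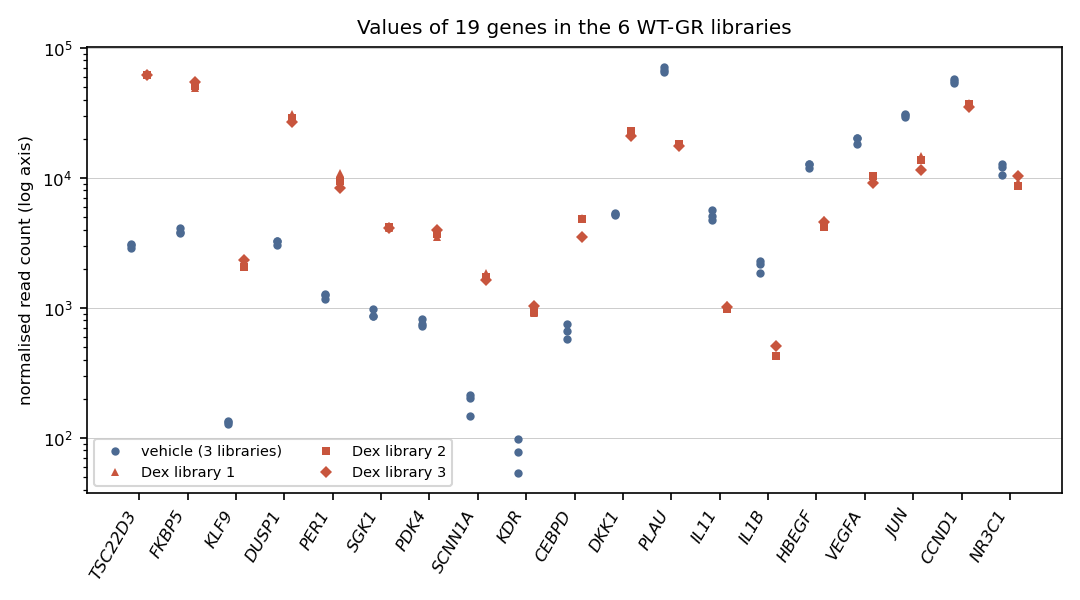
Normalised read count on a log axis of 19 genes in the 6 WT-GR libraries, with vehicle libraries as blue circles and Dex libraries 1, 2 and 3 as red triangles, squares and diamonds. For every gene shown the Dex points lie wholly above or wholly below the vehicle points, and they come closest for NR3C1.

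A few genes went from nearly no reads to clear expression. With a value under 10 in every vehicle library and at least 50 in every Dex library there were 5 of 19907 genes (0.0251%), and 0 with the reverse. IP6K3, an inositol phosphate kinase, had 0 reads in all 3 vehicle libraries and values of 253, 296 and 279.7 with Dex, which is at least 234-fold higher against a floor of 3 reads over the vehicle group. CIDEC, a lipid droplet protein, had 10 vehicle reads in all and Dex values of 619.7, 689 and 425, a ratio of 144 (exact 95% counting interval 77.9 to 300). DPEP1, a membrane dipeptidase, had 8 vehicle reads and Dex values of 519, 478 and 467, a ratio of 152 (76.7 to 352). These intervals cover counting error only. Of recovered counts from 1 to 20, between 60 and 67.5% per WT-GR library were even, so both reads of a pair may have been counted, and the intervals and the floor may be too tight. ANKRD35 and TUBA3E, the latter with close relatives among the tubulin genes that make its count uncertain, were the others. ANKRD35 reached 64.9, 59.9 and 71.2, a ratio of 20.5 (10.2 to 48.3) over 8 vehicle reads. TUBA3E reached 92.2, 54.9 and 68.1, a ratio of 57.3 (19.3 to 280) over 3 vehicle reads. The rule that chose these 5 genes fixes that their groups differ, and with a Dex library left out they fell below the filter and were not tested.

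The receptor's own gene was slightly lower. NR3C1 (chromosome 5, 143277931 to 143435512 in GRCh38.p14), which encodes the glucocorticoid receptor, was counted at 12729, 12139 and 10444 in vehicle and 9214, 8707 and 10247 with Dex. Dex library 3 nearly reached vehicle library 3, though the groups did not overlap (log2 change -0.32 ± 0.09 SE, limma adjusted p = 0.0328). It had its call lost in 6 of 17 alternatives, among them those without vehicle libraries 1 and 2 and without Dex libraries 1 and 2 singly (limma adjusted p up to 0.138), and without Dex libraries 2 and 3 together (log2 change -0.35, limma adjusted p = 0.0729). NR3C2, which encodes the mineralocorticoid receptor, went from 326, 323 and 312 to 193, 183 and 176 and passed (log2 change -0.80). Of 16 receptor and chaperone genes 2 rose and 3 fell. The co-chaperone gene PTGES3 fell by 0.27 on the log2 scale and CDC37 rose by 0.23, the latter call lost in 7 of 17 alternatives, among them those without vehicle libraries 1 and 2 and without Dex libraries 1 and 2 singly (limma adjusted p up to 0.171). PTGES3 had its call lost in 1 of 17 alternatives, without vehicle library 2 (limma adjusted p = 0.0629). The chaperone genes HSP90AB1, HSP90AA1 and HSPA8 did not pass, with log2 changes of -0.03, -0.20 and 0.00.

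Several families of transcription factors moved. Among 14 Krüppel-like factors 6 rose and 0 fell. Besides KLF9 these were KLF15, linked to amino acid metabolism (66.8, 47.6 and 80.02 to 505, 419 and 399.7), KLF7 (1056, 1008 and 915 to 3402, 3281 and 3746), and KLF4, KLF5 and KLF6 with log2 changes of 0.40, 0.39 and 0.56. With scaling by library size only 2 members also fell, beside 11.8% of all genes. Of 12 C/EBP and other bZIP factors 3 rose. CEBPD and CEBPB, which drive acute-phase and differentiation genes, rose. CEBPD went from 578, 666 and 748 to 4893, 4811 and 3482. CEBPB went from 2804, 3512 and 3786 to 12302, 12503 and 9358. Both were lowest among Dex libraries in library 3, without overlap with vehicle. NFIL3, a repressor, was called at 0.30, the call lost in 10 of 17 alternatives, among them those without vehicle libraries 1, 2 and 3 and without Dex libraries 1, 2 and 3 singly (limma adjusted p up to 0.163), and without Dex libraries 2 and 3 together (log2 change 0.21, limma adjusted p = 0.121).

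AP-1 factors, which pair as dimers on the motif shown above, moved apart from each other. JUN went from 29192, 30278 and 31182 to 14696, 13619 and 11404, and all Dex values lay under every vehicle value. FOSL1 and FOSL2 fell by 0.55 and 0.42, with limma adjusted p = 0.0012 and 0.0039. BATF, a family member known from lymphocytes, rose from 58.7, 61.3 and 84.2 to 429, 344 and 248, and JUNB was called at 0.44, the call lost in 6 of 17 alternatives, among them those without vehicle libraries 1 and 2 and without Dex libraries 1 and 2 singly (limma adjusted p up to 0.151). Of 13 members 2 rose and 3 fell, and JUND and MAFF did not pass (0.17 and -0.12).

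The circadian clock genes moved in both directions. Of the PER and CRY repressors PER1 rose as above, PER2 by 0.48 and CRY2 by 0.89, while PER3 and CRY1 did not pass (-0.17 and -0.12). Other repressors fell, with BHLHE40 going from 21995, 22828 and 21481 to 15950.3, 14678 and 14873, BHLHE41 at -0.71 and NR1D1 at -0.45, the last call lost in 5 of 17 alternatives, without vehicle libraries 1, 2 and 3 and without Dex library 2 singly (limma adjusted p up to 0.119), and without Dex libraries 2 and 3 together (log2 change -0.20, limma adjusted p = 0.216). Of 18 clock genes 4 rose and 4 fell, and NPAS2 and NR1D2 did not pass (-0.06 and 0.14). In the MYC network MYC itself, a driver of growth genes, rose from 15553, 15308 and 16343 to 28846, 27279 and 26355. Its relatives MXD4 rose by 0.59 and MXD1 fell by 0.54, while MAX, the shared partner, did not pass at 0.11.

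Brakes on growth signalling moved in both directions. Of 18 genes that restrain MAP kinases and receptor kinases 5 rose and 4 fell. ERRFI1, which binds and inhibits the EGF receptor, went from 76955, 82918 and 81721 to 136784, 136766 and 148459, and DUSP6, an ERK phosphatase, from 24516, 25873 and 25733 to 38494, 37023 and 38089.7. RASA1, which turns off RAS, went down from 12828, 12688 and 12073 to 6334, 6708 and 7328, and LRIG1, which promotes loss of EGF receptors, had a log2 change of -0.75. SPRED3 fell by 0.54, and its relatives SPRED1, SPRED2 and SPRY4 did not pass (-0.09, -0.10 and -0.03). Among 20 regulators of G proteins 6 rose and 4 fell. RGS2, which shortens signals of coupled receptors, rose from 256, 245 and 281 to 893, 1017 and 1192. The small GTPase gene RHOB rose from 2390.3, 2542 and 2687 to 9156, 8465 and 6878, while GEM and RASD2 fell by 0.96 and 1.38.

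Genes of insulin and FOXO signalling rose or did not pass. Of 24 tested, 12 rose and 0 fell, with a median log2 change of 0.28. Scaled by library size only the count was 8, and without Dex libraries 2 and 3 it was 13. IRS2, an adaptor of the insulin receptor, went from 3244, 3218 and 3035 to 12463, 10116 and 9612. FOXO1, a transcription factor that insulin signalling holds out of the nucleus, went from 474, 510.5 and 448 to 1156, 991 and 1142. In both, the Dex values lay wholly above vehicle. DDIT4, an inhibitor of mTOR, went from 36624, 39629 and 41620.0 to 80457, 72635 and 67925. DEPTOR, another mTOR inhibitor, went from 57.0, 78.2 and 55.8 to 169, 187 and 184. IRS2, FOXO1 and DDIT4 had log2 changes of 1.75, 1.20 and 0.91, and none of the 4 genes had its groups overlap. IGFBP3, which binds insulin-like growth factors, rose by 1.05. IGFBP4, IGF1R and IGF2R did not pass (0.23, 0.21 and -0.03).

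Some genes of glucose metabolism changed. Of 14 genes of the pyruvate dehydrogenase complex and its regulators only PDK4 rose. PDP1, the phosphatase that opposes it, fell from 6553, 6636 and 6235 to 4183, 4369 and 5056, and PDK1 had a log2 change of -0.30, its call lost in 3 of 17 alternatives, without vehicle libraries 2 and 3 and without Dex library 1 singly (limma adjusted p up to 0.119). The complex subunits PDHB, DLD and DLAT did not pass (0.02, -0.13 and -0.09). Among 26 glycolysis and glucose transport genes 3 rose and 6 fell. TXNIP, which limits glucose uptake, rose from 14904, 15735 and 14827 to 36107, 35706 and 41227. PFKFB3, which makes an activator of glycolysis, fell from 16408, 16156 and 15727 to 11498, 9874 and 10076, the hexokinase gene HK2 by 0.53, the enolase gene ENO2 by 0.36 and the glucose transporter gene SLC2A1 by 0.32. SLC16A3, which exports lactate, was called at 0.32, its call lost in 5 of 17 alternatives, among them those without vehicle libraries 1 and 2 and without Dex libraries 1 and 2 singly (limma adjusted p up to 0.114). GAPDH, PKM and ENO1 did not pass (0.04, -0.01 and 0.03), and without Dex libraries 2 and 3 the list counted 6 rising and 6 falling.

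Lipid genes moved both ways. Of 18 genes of fatty acid oxidation and the PPAR axis 4 rose and 0 fell. PPARGC1A, a coactivator of mitochondrial genes, went from 243, 196 and 158 to 536, 545 and 599, and CPT1A, which admits fatty acids to mitochondria, rose by 0.48. The oxidation enzymes ACADVL, HADHA and HADHB did not pass (0.11, 0.01 and -0.01). Of 22 lipid droplet and lipolysis genes 6 rose and 5 fell. The droplet coat gene PLIN2 went from 9442, 9667 and 10210.5 to 18301, 18599.6 and 19401, while PLIN4 had a log2 change of -1.07. G0S2, an inhibitor of lipolysis, went from 10715, 10577 and 11902 to 4797, 4619 and 3751, and the lipase gene LIPG from 9134, 9722 and 8868 to 3959, 3866 and 4320.3. Both fell without overlap. Of 22 cholesterol genes 7 fell and 0 rose, with a median of -0.09: HMGCS1, an early enzyme of the pathway, by 0.53, the sterol sensor partners INSIG1 and INSIG2 by 0.48 and 0.49, and STARD4, a sterol carrier, by 0.71. FASN did not pass (0.07).

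A few amino acid genes changed. The cationic amino acid transporter gene SLC7A2 rose from 1207, 1007 and 889.7 to 5084, 5029 and 6062, and the cystine transporter gene SLC7A11 fell from 8932, 7475 and 6152 to 3802, 4148 and 4782. Neither overlapped. GLUL, which makes glutamine, went from 5708, 5954 and 5864 to 10866, 10651 and 10536, and SLC38A2, a glutamine transporter, rose by 0.54. ASNS, which makes asparagine, was called at -0.28, its call lost in 6 of 17 alternatives, among them those without vehicle libraries 1, 2 and 3 and without Dex libraries 1 and 2 singly (limma adjusted p up to 0.113). Of 21 genes of this list 3 rose and 2 fell, and SHMT2 and SLC7A5 did not pass (0.09 and -0.12).

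Secreted cytokines fell more often than they rose. Of 21 tested, 10 fell (8.33% of all genes) and 1 rose, with a median log2 change of -0.52. IL11, a cytokine of the IL-6 family, went from 4722, 5125 and 5683 to 1055, 981 and 1019. IL1B, a central inflammatory cytokine, went from 1866, 2306 and 2181 to 427, 425 and 509.5. TNFSF10, the death ligand TRAIL, went from 207, 245 and 226 to 32.4, 34.9 and 50.9. In all 3 genes every Dex value lay far under the lowest vehicle value, with log2 changes of -2.34, -2.22 and -2.52. CSF2 fell by 1.35 and GDF15 by 1.04, the latter call lost in 5 of 17 alternatives, among them those without vehicle libraries 2 and 3 and without Dex library 2 singly (limma adjusted p up to 0.118), and without Dex libraries 2 and 3 together (log2 change -0.51, limma adjusted p = 0.158). CSF1 and IL18 did not pass (-0.16 and -0.07). Of 9 chemokines the neutrophil attractants CXCL1 and CXCL2 rose by 0.81 and 0.84 and CXCL8 fell by 0.69. CXCL1 had its call lost in 7 of 17 alternatives, among them those without vehicle libraries 1, 2 and 3 and without Dex library 1 singly (limma adjusted p up to 0.0763), and without Dex libraries 2 and 3 together (log2 change 0.76, limma adjusted p = 0.0553). CXCL8 had its call lost in 5 of 17 alternatives, among them those without vehicle libraries 2 and 3 and without Dex libraries 1 and 2 singly (limma adjusted p up to 0.145).

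Receptors of cytokines and NF-kB genes went both ways. IL1R1, the receptor of interleukin 1, rose from 1246, 1295 and 1208 to 3368, 3293 and 3648, and TNFRSF21, a death receptor, fell from 26701, 25911 and 25241 to 13994, 12855 and 13947. Of 26 cytokine receptors 4 rose and 4 fell, while OSMR and IL6ST did not pass (-0.08 and -0.04). Among 25 NF-kB subunits and feedback inhibitors 6 rose and 7 fell. Inhibitors were found on both sides. NFKBIA, which holds NF-kB in the cytoplasm, went from 4449.9, 5096 and 5222 to 12973, 12773 and 11766. TNFAIP3, a ubiquitin-editing enzyme, went from 433, 424 and 429 to 806, 986 and 996, and BIRC3, an inhibitor of apoptosis, from 722, 679.6 and 866 to 2361, 2487 and 2975. All 3 were well separated from vehicle. CYLD, a deubiquitinase that restrains NF-kB, fell by 0.44. NFKBIE, a relative of NFKBIA, was called at -0.34, its call lost in 9 of 17 alternatives, among them those without vehicle libraries 1, 2 and 3 and without Dex libraries 2 and 3 singly (limma adjusted p up to 0.144), and without Dex libraries 2 and 3 together (log2 change -0.15, limma adjusted p = 0.293). The subunit gene RELB fell by 0.52, its call lost in 4 of 17 alternatives, without vehicle libraries 2 and 3 and without Dex library 2 singly (limma adjusted p up to 0.0952), and without Dex libraries 2 and 3 together (log2 change -0.45, limma adjusted p = 0.103). RELA and NFKB2 did not pass (0.12 and -0.16).

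More type I interferon genes fell than rose, and the reverse held for acute-phase genes. Of 24 interferon genes 10 fell and 2 rose, with a median log2 change of -0.27. Scaled by library size only 15 fell, beside 11.8% of all genes. IFI44L had a log2 change of -0.93, OAS1, an RNA sensor, of -0.70, DDX58, the sensor RIG-I, of -0.70 and the transcription factor gene IRF1 of -0.50. IFIT3, OAS3 and IFI6 did not pass (-0.19, -0.24 and 0.20). Among 15 acute-phase and innate defence genes 5 rose and 1 fell. SAA1, a serum amyloid protein, went from 108, 83.5 and 112 to 1000.4, 829.5 and 1080.1. SERPINA3, a protease inhibitor of plasma, went from 109, 95.1 and 112 to 531, 555 and 497. S100P, a calcium-binding protein, went from 11.4, 27.5 and 36.9 to 215, 203 and 166. SAA2 was called at 1.66, its call lost in 5 of the 16 alternatives that tested it, among them those without vehicle libraries 1 and 2 and without Dex libraries 1 and 2 singly (limma adjusted p up to 0.0964). It shares much sequence with SAA1, so both counts are uncertain. TLR4, the sensor of bacterial lipopolysaccharide, fell by 0.53.

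Genes known to end inflammatory signals were among the rises. ZFP36L2, which directs mRNAs to decay, went from 3671, 3792 and 3861 to 24162, 22517 and 19952. ZFP36, which does so for cytokine mRNAs, went from 1185, 1294 and 1401 to 3865, 3667 and 3036. Both were highest in Dex library 1 and lowest in library 3. They and PNRC1 were the members of 18 mRNA decay genes that rose, 0 fell, and PNRC1 had its call lost in 6 of 17 alternatives, among them those without vehicle libraries 1 and 2 and without Dex libraries 1 and 2 singly (limma adjusted p up to 0.148). Scaled by library size only 4 members of that list fell, beside 11.8% of all genes. HPGD, which breaks down prostaglandins, went from 142, 109.9 and 124 to 466, 468 and 607. Of 17 prostaglandin and annexin genes 5 rose and 0 fell. ANXA1, known as a glucocorticoid-regulated protein in leukocytes, did not pass, with 68254 ± 3056 in vehicle and 74444 ± 5259 with Dex (SD, n = 3), and ANXA5 did not either (0.03). ANXA2 was called at 0.20, its call lost in 9 of 17 alternatives, among them those without vehicle libraries 1 and 2 and without Dex libraries 1, 2 and 3 singly (limma adjusted p up to 0.17), and without Dex libraries 2 and 3 together (log2 change 0.19, limma adjusted p = 0.0981).

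In the plasminogen system the activator and its receptor fell. PLAU, the urokinase activator, went from 65076, 67289.7 and 70865 to 18118, 18258 and 17466, and its receptor gene PLAUR from 17319, 18311 and 19473 to 10199, 10248 and 9894. Neither gene overlapped between the groups (log2 changes -1.92 ± 0.06 SE and -0.86 ± 0.06 SE, limma adjusted p = 2.4e-08 and 9.09e-06). Of 21 protease and inhibitor genes 3 rose and 7 fell. The metalloprotease genes ADAMTS1 and ADAM19 fell by 1.37 and 1.14, and MMP14, a membrane collagenase, went from 99633, 102390.5 and 99891 to 80293, 72261 and 70913. The inhibitors TIMP1 and TIMP2 did not pass (0.16 and -0.09).

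Adhesion and matrix genes changed at single members. Of 16 integrin genes ITGA5, the fibronectin receptor subunit, rose from 20952, 21104 and 20906 to 45599, 40511 and 41737. ITGA10, a collagen receptor subunit, rose from 715, 705 and 747 to 3107, 3388 and 2976. ITGA2 fell by 0.93, and ITGA3, ITGB1 and ITGA6 did not pass (-0.05, -0.16 and -0.27). Of 26 matrix genes 5 rose and 4 fell. THBS1, which activates TGF-beta, went from 38304, 34018 and 30697 to 87586, 75925 and 86511, and LOX, which crosslinks collagen, from 9638, 10744 and 10194 to 19382, 18568 and 19768. The laminin chain gene LAMB3 and the collagen genes COL17A1 and COL7A1 had log2 changes of -0.47, -0.55 and -0.34, and COL7A1 had its call lost in 6 of 17 alternatives, among them those without vehicle libraries 1, 2 and 3 and without Dex library 2 singly (limma adjusted p up to 0.122), and without Dex libraries 2 and 3 together (log2 change -0.22, limma adjusted p = 0.111). FN1, fibronectin, varied widely, from 57099, 41066 and 29774 in vehicle to 87082, 62286 and 84869 with Dex, and it had its call lost in 2 of 17 alternatives, without Dex library 1 (limma adjusted p = 0.0829), and without Dex libraries 2 and 3 together (log2 change 1.08, limma adjusted p = 0.056). Among 27 tensins and focal adhesion adaptors 7 rose and 2 fell. LDB3, a partner of alpha-actinin known from muscle, went from 48.9, 34.9 and 34.8 to 613, 636 and 682. NEDD9, a scaffold of focal adhesions, went from 171, 172 and 191 to 579, 483 and 644, and TNS2 rose by 1.15. TNS4 fell by 0.79, and TLN1, ACTN1 and ACTN4 did not pass (0.27, 0.03 and -0.03).

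Of 20 targets of YAP and TEAD, factors that respond to cell tension and contact, 9 rose beside 8.17% of all genes, and 2 fell. ANKRD1, a nuclear cofactor, went from 12157, 13510.0 and 14385 to 41944, 43992 and 48912. CTGF, a matrix protein that binds integrins, went from 22192, 23324 and 24229 to 51861, 49598 and 49944. CYR61, its relative, went from 53700.0, 58400.4 and 60572 to 94683, 88376 and 91135. All were clear of vehicle in every Dex library. Their log2 changes were 1.75, 1.12 and 0.67. In the TGF-beta list of 28 genes 4 rose and 5 fell. The ligand TGFB2 and the receptor TGFBR2 rose by 0.71 and 0.71, while SMAD3, which carries the signal, and SMURF2, which ends it, fell by 0.47 and 0.64. TGFB1 did not pass, with 14054 ± 1248 in vehicle and 14114 ± 2273 with Dex (SD, n = 3). Scaled by library size only 7 members of the TGF-beta list fell, beside 11.8% of all genes.

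Growth factors of the EGF, VEGF and Wnt families changed by member. HBEGF, a ligand of the EGF receptor, went from 11893, 12817 and 12663 to 4729, 4207 and 4553, and TGFA fell by 1.06. AREG, another ligand, rose from 391, 363 and 364 to 801, 709.7 and 893. Of 12 members 2 rose and 4 fell, and EGFR did not pass, with 16814 ± 3109 in vehicle and 15303 ± 1582 with Dex (SD, n = 3). VEGFA, the main angiogenic factor, went from 18219.9, 20098 and 20310.4 to 9413, 10273 and 9163. Its receptor gene KDR went up from 97.8, 77.2 and 53.7 to 905, 936 and 1030.3, and the vasoconstrictor gene EDN2 from 184, 159.6 and 185 to 1497, 1415 and 1200.1. Of 18 vascular factors 5 rose and 3 fell. Endothelial markers moved beside them: PECAM1 rose by 0.90 and CDH5 by 1.07, VWF fell by 1.07, and TEK did not pass at -0.65. The 4 markers summed to 1905 to 2049 in vehicle and 2857 to 3403 with Dex, and their part in the result was not tested.

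DKK1, a secreted inhibitor of Wnt, went from 5261, 5147 and 5336 to 22351, 22938 and 21038. LGR5, a receptor that strengthens Wnt signals, went from 261, 191 and 163 to 39.3, 41.9 and 10.2, with the lowest value in Dex library 3. AXIN2, a feedback target of Wnt, fell by 0.67, and WNT7B and FZD8 by 1.23 and 1.02. Of 21 Wnt genes 1 rose (8.17% of all genes) and 4 fell (8.33%), and 7 fell without Dex libraries 2 and 3 (12.3%). FZD1, FZD2 and FZD6 did not pass (0.03, 0.01 and -0.12).

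Metallothionein genes rose. MT2A went from 63863, 64949 and 78299.5 to 282120.4, 268027 and 232353. MT1E went from 13283, 12945 and 14896 to 94085, 95942 and 87510.0. MT1X went from 3314, 3457 and 4069.7 to 23411, 21812 and 19389. These bind zinc and copper, and they are so alike in sequence that the share of each is uncertain. Of 10 genes of metallothioneins and zinc transport 4 rose and 1 fell, the zinc exporter SLC30A1 (-0.66), its call lost in 1 of 17 alternatives (without Dex libraries 2 and 3, log2 change -0.37, limma adjusted p = 0.0508). SCNN1A, a subunit of the epithelial sodium channel, went from 215, 203 and 147 to 1854, 1718 and 1649.6. NEDD4L, which removes that channel, fell by 0.48. Of 23 genes of ion pumps, channels and aquaporins 3 rose and 4 fell, with a median log2 change of -0.15. In steroid and xenobiotic metabolism CYP1A1 and CYP1B1, both targets of the dioxin receptor, fell by 0.96 and 0.87, and of 26 such genes 3 rose and 6 fell.

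DNA replication genes fell together by small amounts. Of 26 tested, 16 fell and 0 rose, with a median log2 change of -0.29 and a lowest value of -0.57. CDC6, which loads the replicative helicase, went from 10708, 10738 and 11054 to 6632, 7453 and 7794. Every Dex value lay under every vehicle value, and Dex library 3 was the nearest to vehicle. CLSPN, ORC1 and MCM10 fell by 0.57, 0.50 and 0.41, and MCM7, MCM3 and RRM1 did not pass (0.03, -0.12 and -0.16). Without Dex libraries 2 and 3 17 fell and 1 rose. Of 24 mitosis genes 3 fell and 1 rose, beside 8.33% and 8.17% of all genes, and 9 fell without Dex libraries 2 and 3 (12.3% of all genes there) and 7 with scaling by library size only (11.8%).

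Regulators of the cell cycle and of death changed in both directions. Cyclin D1 (CCND1), which opens the G1 phase, went from 57198, 56050.0 and 53898 to 37953, 37165 and 34928. Cyclin E2 (CCNE2), which acts at entry to S phase, went from 2333, 2401 and 2141 to 994, 1036 and 1255. Cyclin D3 (CCND3) went up from 10423, 10297 and 10588 to 22837, 20864 and 18996. None of these cyclins overlapped between the groups. CDKN1A, the inhibitor p21, rose by 0.74 and the stress genes GADD45A and GADD45B by 1.06 and 1.23. CDK2 and CDK4 did not pass (0.02 and 0.14). Among 24 genes of the BCL2 family and death receptors 4 rose and 8 fell. The survival gene MCL1 went from 34928, 35426 and 33963 to 61935, 62244 and 60935. BCL2L1, which encodes BCL-XL, went from 27418, 28275 and 28879 to 54745, 49337 and 47849. CFLAR, which blocks death receptor signals, rose by 0.68. The death-promoting gene PMAIP1 and the TRAIL receptor gene TNFRSF10B fell by 0.68 and 0.61, as did BCL2A1, a survival gene, by 1.85. BAX, BAD and XIAP did not pass (0.18, 0.24 and -0.16).

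Genes of translation and respiration shifted by little, and their counts depended on the fit. Of 36 cytosolic ribosomal protein genes 9 rose and 0 fell, with log2 changes from 0.03 to 0.43. The count was 4 with scaling by library size only (5.88% of all genes higher) and 24 with all 12 libraries in the fit (13.9%). RPL3 went from 156567, 156952 and 168683 to 198755, 187297 and 185635, its call lost in 4 of 17 alternatives, among them those without vehicle libraries 1 and 2 and without Dex library 2 singly (limma adjusted p up to 0.113), and RPLP0 and RPL4 did not pass (0.15 and 0.10). Of 32 respiratory chain subunits 2 (6.2%) rose, NDUFA2 and COX5B, beside 8.17% of all genes. With all 12 libraries in the fit 8 rose, beside 13.9% of all genes. NDUFA2 had its call lost in 5 of 17 alternatives, among them those without vehicle libraries 1 and 2 and without Dex libraries 1 and 2 singly (limma adjusted p up to 0.0907). COX5B had its call lost in 5 of 17 alternatives, among them those without vehicle libraries 1 and 2 and without Dex libraries 1 and 2 singly (limma adjusted p up to 0.104). Ribosome biogenesis counted 2 of 25 higher (8.17% of all genes) and 7 with all 12 libraries in the fit (13.9%). Of 17 housekeeping genes 2 rose. One was B2M, with a log2 change of 0.30, and it had its call lost in 5 of 17 alternatives, among them those without vehicle libraries 1 and 2 and without Dex library 1 singly (limma adjusted p up to 0.102), and without Dex libraries 2 and 3 together (log2 change 0.32, limma adjusted p = 0.0623). ACTB did not pass (0.04).

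**Figure D4:**
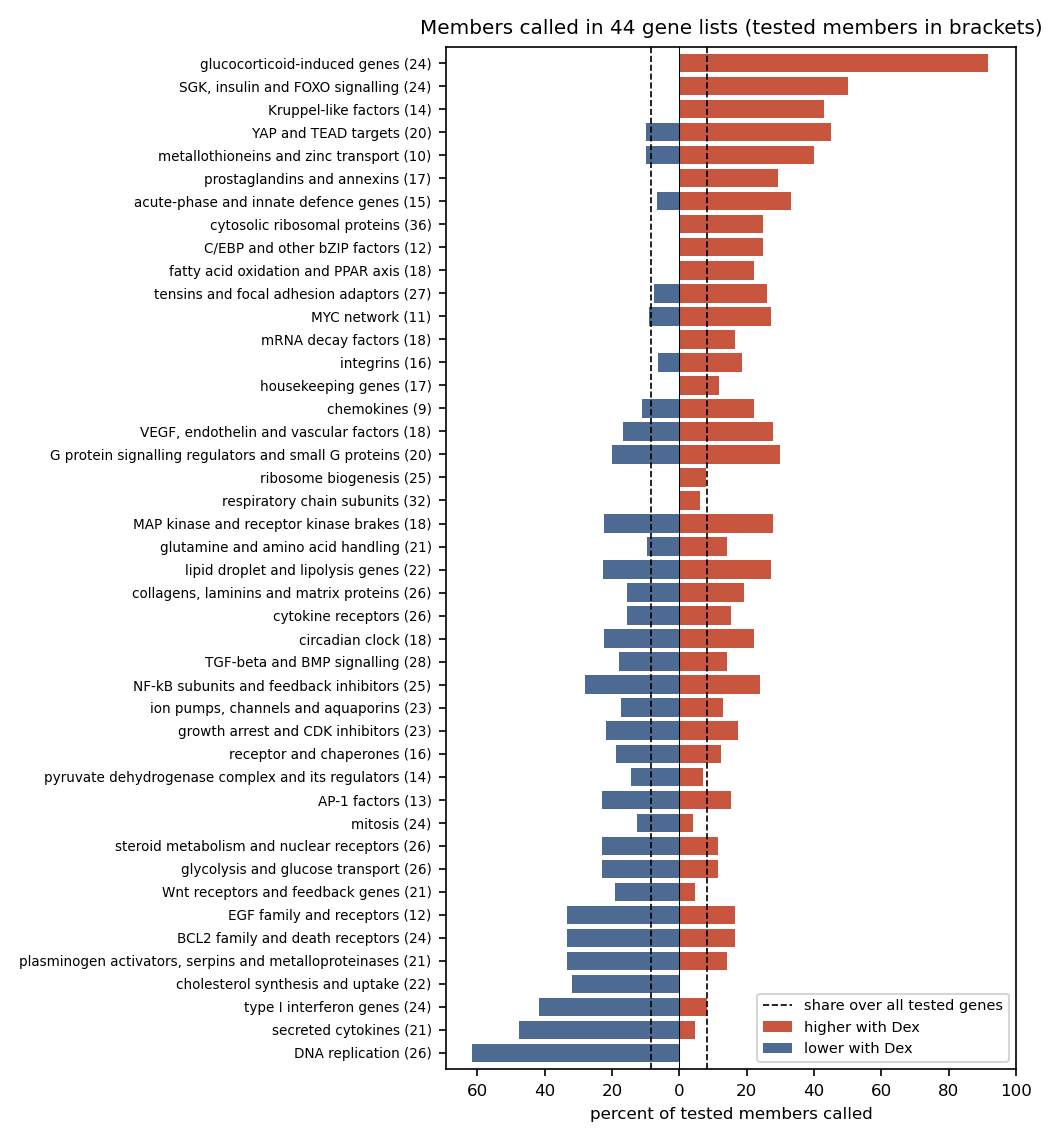
Percent of tested members called higher (red, to the right) and lower (blue, to the left) with Dex in 44 gene lists, ordered by the difference of the shares, with the number tested in brackets. Dashed lines mark the shares over all tested genes, 8.17% higher and 8.33% lower, and glucocorticoid-induced genes stand at the top with 22 of 24 higher and DNA replication at the bottom with 16 of 26 lower. The lists and their members were chosen with earlier results of these data known.

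Some of the largest falls belong to genes with unsteady counts. TRIM27 was counted at 373, 29.6 and 535 in vehicle and 23.9, 8.98 and 24.4 with Dex, so that vehicle library 2 lay close to the Dex values. It had its call lost in 7 of the 16 alternatives that tested it, among them those without vehicle libraries 1 and 3 and without Dex libraries 1 and 2 singly (limma adjusted p up to 0.116), and without Dex libraries 2 and 3 together (log2 change -2.88, limma adjusted p = 0.212). RPS9, a ribosomal protein gene with processed copies, went from 316, 862 and 749.7 to 44.4, 88.8 and 106, and its direction stands apart from the other ribosomal genes. RAB3B went from 130.4, 130.0 and 100.03 to 13.7, 5.99 and 48.8, its call lost in 1 of 17 alternatives, without Dex library 1 (limma adjusted p = 0.0582). ELF3, an epithelial transcription factor, fell more steadily, from 153, 190.2 and 174 to 15.4, 43.9 and 32.5, as did PLEKHG4B, from 191, 239 and 216 to 27.3, 42.9 and 50.9. VIM, the mesenchymal filament gene, had a log2 change of -0.18, its call lost in 8 of 17 alternatives, among them those without vehicle libraries 1, 2 and 3 and without Dex libraries 1 and 2 singly (limma adjusted p up to 0.177), and without Dex libraries 2 and 3 together (log2 change -0.21, limma adjusted p = 0.0587). SCD, a fatty acid desaturase, stood at -0.28, its call lost in 3 of 17 alternatives, without vehicle libraries 1 and 2 and without Dex library 2 singly (limma adjusted p up to 0.092). There were 18 genes whose values spanned over 4-fold within a group at a mean of at least 500, and 0 of them passed limma.

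The response was set against that of S134A-GR cells by limma's interaction over all 12 libraries. Of 15957 genes 66 (0.414%) passed for the difference of responses, and 53 of these were among the genes called in WT-GR cells. The count was 1623 without WT-GR Dex library 3 and 2565 without WT-GR Dex libraries 2 and 3, so a gene that did not pass is not shown to respond alike. TNS4, a tensin of focal adhesions, went from 5080.5, 4986 and 4863 to 3046, 2741 and 2827 in WT-GR cells and from 238, 201 and 162 to 653, 648 and 710.2 in S134A-GR cells. It fell in every WT-GR Dex library and rose in every S134A-GR one, and the difference was 2.55 ± 0.15 SE (limma adjusted p = 4.53e-06). LDB3 went from 48.1, 61.8 and 41.0 to 294, 314 and 290.1 in S134A-GR cells, a smaller rise by a log2 difference of -1.44 (limma adjusted p = 0.0256). FKBP5 also rose less there (difference of -0.38). LOX rose more (difference of 0.69), as did EDN2 (difference of 1.62), which went from 46.2, 30.4 and 41.0 to 909, 969 and 952 there, lower than in WT-GR cells under both treatments, and CCNE2 fell less (difference of 0.71). IL6R, a subunit of the interleukin 6 receptor, rose by 0.80 in WT-GR cells and had a log2 change of -0.09 in S134A-GR cells, a difference of -0.89 (limma adjusted p = 0.022). The starting levels of IL6R differed, at 321, 387 and 363 in WT-GR vehicle and 575, 501 and 505 in S134A-GR vehicle.

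**Figure D5:**
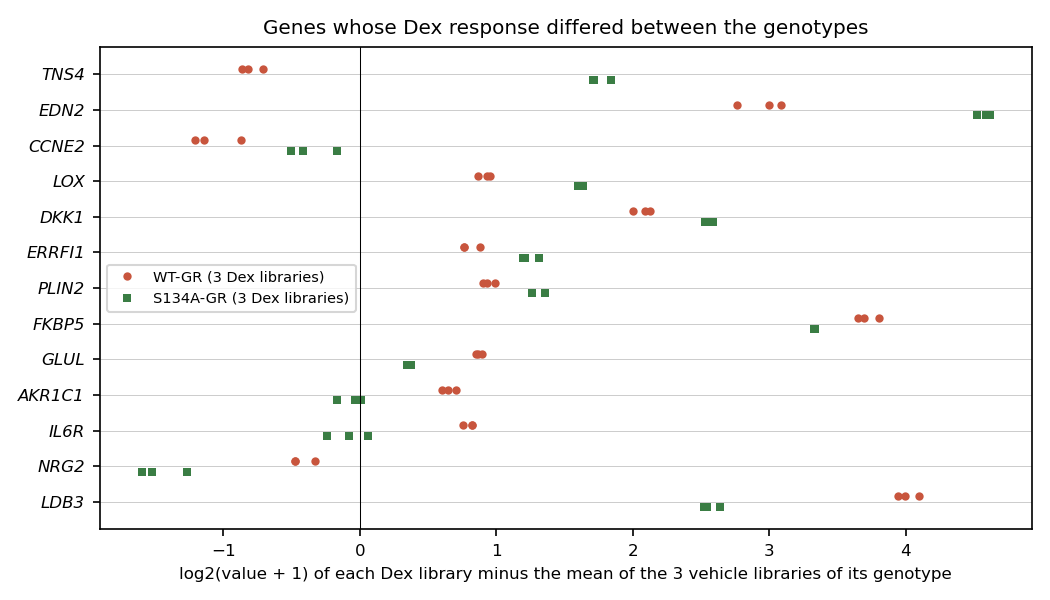
Log2(value + 1) of each Dex library minus the mean of the 3 vehicle libraries of the same genotype, for 13 named genes whose responses differed by limma's interaction test, with WT-GR libraries as red circles and S134A-GR libraries as green squares. The genotypes do not overlap for any gene shown, which the choice of genes by that test made likely, and TNS4 lies on opposite sides of 0.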

How the data were processed

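RNA of the 12 samples was made into TruSeq mRNA libraries and sequenced as 75-base pairs, with about 40 M reads (M, 10 to the power 6) per sample, per the labels' protocols. The submitters' processing notes name FastQC 0.11.7, featureCounts, Subread, DESeq2 1.22.2 and the build hg38. For the aligner and the gene annotation, nothing is given in the sources used here. The deposited files hold a normalised signal per gene, and how the authors scaled it is not described beyond these names. In each library 100% of the values were whole multiples of 1 step (within 0.01 reads), and dividing by it gave whole reads, from 56.4 to 93.8 M per WT-GR library. Dex values took the vehicle gene names of the same lines.

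Changes were tested with limma 3.58.1 (R 4.3.3) on log2(value + 1), with its trend option, over the 6 WT-GR libraries and genes with at least 10 in at least 3 of them, with Benjamini-Hochberg adjustment over all genes tested. A fold on this scale understates the change of low genes. Differences of responses were limma's interaction over 12 libraries. The script was tested on simulated data. Named genes were, where groups did not overlap and 1 group's mean was at least 100, the 15 largest log2 rises and falls and the 10 largest gains and losses of value (not per length). They were also, without those conditions, up to 6 called members and 3 that did not pass of each of 44 lists, 8 set genes, and genes switched on. Outside this rule PER3, CRY1, CYLD, NFKBIE and markers are named, chosen after their values were seen. The members and lists were chosen with earlier results of these data known. Motifs were counted in RefSeq promoters. Alternatives used edgeR 4.0.16 and DESeq2 1.42.0 on recovered reads, other pseudocounts (5 and 0.5), filters (none and 50), a replicate block, library weights, all 12 libraries and libraries left out. Of the 946 list symbols 926 were found and 873 tested. Genes below the filter were left out of tests, and replicates were not pooled. Some genes are not reported here.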

Additional observations from a re-analysis of the deposited data

Results flagged for a closer look

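Responses of 13 named genes differed between the genotypes by limma's interaction test over 12 libraries, and each is given here as the log2 change in S134A-GR cells minus that in WT-GR cells. The log2 change with Dex was lower in S134A-GR cells for LDB3 (-1.44), NRG2 (-1.03), IL6R (-0.89), AKR1C1 (-0.72), GLUL (-0.51) and FKBP5 (-0.38). Of these NRG2 fell in both genotypes, and it fell more in S134A-GR cells. The log2 change was higher there for TNS4 (2.55), EDN2 (1.63), CCNE2 (0.71), LOX (0.69), DKK1 (0.49), ERRFI1 (0.44) and PLIN2 (0.35). Of these CCNE2 fell in both genotypes, and it fell less in S134A-GR cells. ERRFI1 started lower in S134A-GR vehicle, at 31940, 33361 and 33009, than in WT-GR vehicle, at 76955, 82918 and 81721. With Dex it was also lower there, at 81322, 74939 and 75946 against 136784, 136766 and 148459 in WT-GR cells. For none of the 13 genes did the changes of the 3 WT-GR Dex libraries overlap those of the 3 S134A-GR Dex libraries, as the plot of both genotypes shows. Their choice by this test on the same libraries made that likely, so it adds no support. The calls of NRG2 and AKR1C1 for Dex in WT-GR cells depended on the fit. NRG2, a ligand of ERBB receptors, had its call lost in 7 of 17 alternatives, among them those without vehicle libraries 1, 2 and 3 and without Dex library 2 singly (limma adjusted p up to 0.136), and without Dex libraries 2 and 3 together (log2 change -0.33, limma adjusted p = 0.109). AKR1C1, a steroid reductase with near-identical family members and therefore an uncertain count, had its call lost in 3 of 17 alternatives, among them those without vehicle libraries 1 and 2 singly (limma adjusted p up to 0.0586). Its starting levels differed, at 166, 173 and 163 in WT-GR vehicle and 844, 865 and 851 in S134A-GR vehicle. The number of genes past this test was far higher without WT-GR Dex library 3 (1623) than with all libraries (66).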

How the results depend on the processing

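Of 243 named genes called with Dex, 181 were tested and called in all 17 alternatives with repaired names, among them 86 of the 96 changed at least 2-fold, and 0 changed direction. Of the 243, 8 could not be tested in every one, being below its filter. Of 2530 genes called, 1063 passed in all 17 (587 higher and 476 lower). Left out singly, the libraries moved the count of calls from 1135 (without vehicle library 2) to 4352 (without Dex library 3), that of higher genes from 632 to 2270, of lower genes from 503 to 2082, and of genes changed at least 2-fold from 317 to 458. Without vehicle libraries 1 and 2 the named genes lost 40 and 51 calls, and without Dex libraries 1, 2 and 3 they lost 34, 39 and 2. Without Dex libraries 2 and 3 there were 3825 calls, 1978 higher, and with all 12 libraries 4455, 2216 higher and 2239 lower. Library weights, whose estimate did not fully converge, gave 7795 calls, 3817 higher, 3978 lower and 985 at least 2-fold. With gene names as deposited 13280 genes passed, 6623 higher, 6657 lower and 12137 at least 2-fold. The causes were not tested, beyond the names.

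For the difference of responses the 66 calls became 506 by DESeq2, 2854 with library weights, 4718 with names as deposited and 2565 without WT-GR Dex libraries 2 and 3. Left out singly, libraries gave 26 (without WT-GR vehicle library 2 or S134A-GR vehicle library 1) to 1623 (without WT-GR Dex library 3).

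Whether the replicate numbers pair the samples is not given in the labels and was not settled. Deviations of same-numbered vehicle and Dex libraries correlated at r = 0.0475, 0.0381 and -0.0422. These values cannot decide it, since each deviation is taken from the mean of its own 3 libraries. With the replicate number as a block (replicate block) 1453 genes were called, 746 higher and 707 lower, and 25 for the difference of responses, and 34 named calls were lost. The block gave 2 higher of 36 ribosomal protein genes, beside 746 higher of all 15334 genes tested, which is no result about that list. Libraries 1 and 2, not 3, correlated best with their own number. Low genes had the larger error, with a median SE of 0.467 under a mean of 100 against 0.064 above 10000.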

Other observations

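Outside the lists and the named genes, 40 called genes had a group mean of at least 1000 and a log2 change of at least 1.5, 35 higher and 5 lower, and this group was chosen after its values were seen. All 40 kept their calls in all 17 alternatives. Receptors and their scaffolds were among the higher genes. ADRA1B, an adrenergic receptor, was at 487, 532 and 509.6 in vehicle and 4143, 4011 and 3817 with Dex. FPR1, a receptor for formyl peptides known from neutrophils, was at 609, 512 and 518 in vehicle and 2685, 2479.6 and 2762 with Dex. AKAP12, a scaffold for protein kinase A, was at 9615, 8609 and 7535 and then at 39439.6, 31902 and 41900.4. In none of these did the groups overlap, which held for 2525 of the 2530 called genes. Their log2 changes were 2.97, 2.28 and 2.13.

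Other genes that rose encode enzymes. NNMT, which methylates nicotinamide, had a log2 change of 2.43, MAOA, which breaks down amines, of 1.99, GGT5, which acts on glutathione conjugates, of 1.55 and NAGS, which makes an activator of the urea cycle, of 1.69. ALPP, placental alkaline phosphatase, had 2.58, and near-identical copies make its count uncertain. SDPR, a caveolar protein, was at 3492, 3669 and 3433 in vehicle and 13868, 13186 and 13648 with Dex (log2 change 1.94), and rose by 3.08 in S134A-GR cells. The 5 lower genes were FGF1, a growth factor (-1.52), the transcription factor gene SOX4 (-1.53), FILIP1L (-1.54), SPNS2, which exports sphingosine phosphate (-1.55), and FAM46C (-1.79). SOX4 was at 3603, 3516 and 3381 in vehicle and 1221, 1203 and 1204 with Dex, and FAM46C at 4599.8, 4125 and 3733 in vehicle and 1139, 1084 and 1394 with Dex. Both had every Dex value under every vehicle value, which the rule that chose them made likely.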
